A study of Homo sapiens with 12 samples.

Results

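The aminoacyl-tRNA synthetases and the scaffold proteins of their complex were compared between control and FAM111B-depleted Huh7 cells, with the cytosolic enzymes set against the mitochondrial ones. Members were found by gene name in the deposited table, which lists 60666 genes, and pseudogenes were left out by their description. The search gave 40 genes, and all 40 passed the filter of at least 1 TPM (a level that is divided by transcript length and scaled to a fixed total in each library) in at least 3 libraries, as did 14394 genes in all. Of the 40 genes, 23 were counted as cytosolic, namely 20 synthetase genes and the complex factors AIMP1, AIMP2 and EEF1E1. The other 17, whose names end in 2, were counted as mitochondrial. AIMP2 also ends in 2, but it encodes a cytosolic scaffold and was kept with the cytosolic members.

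Huh7 is an established human hepatocellular carcinoma line. The NC cells carried a lentiviral control sequence, and the KD cells, called shFAM111B cells here, carried a lentiviral shRNA against FAM111B under puromycin selection for stable knockdown. Each group had 3 libraries of poly(A)-selected RNA. Nothing in the labels says that the 3 libraries of a group came from separate cultures, so the p-values measure only the spread between these libraries, which may be technical. The knockdown rests on a single construct in a single line for this comparison. Libraries of Hep3B, another hepatoma line, were not used here.

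Each synthetase joins an amino acid to its tRNA, and the charged tRNA then carries the amino acid to the ribosome. Human cells keep separate sets of these enzymes for the cytosol and for mitochondria, where they serve the translation of the few proteins encoded by the mitochondrial genome, and both sets are encoded by nuclear genes. GARS1 and KARS1 each serve both compartments from a single gene. EPRS1 joins glutamate and proline in the cytosol, FARSA and FARSB are the subunits of a single cytosolic enzyme, and mitochondria make glutaminyl-tRNA indirectly, through EARS2 and an amidotransferase. Several cytosolic enzymes sit with AIMP1, AIMP2 and EEF1E1 in the multisynthetase complex. Many cytosolic synthetase genes are known targets of ATF4, the transcription factor of the amino acid response.

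FAM111B was at 7.84, 8.29 and 7.99 TPM in NC replicates 1 to 3 and at 0.96, 1.13 and 0.84 TPM in shFAM111B replicates 1 to 3. No library of one group came near the other, and the difference of log2(TPM + 1), shFAM111B minus NC, was -2.20 (limma, adjusted p = 6.09e-06, standard error 0.113). All 10 hepatoma markers, including ALB and AFP, were at 1 TPM or more in every library. Their summed level ranged from 27947 to 28518 TPM in the NC libraries and from 41574 to 46536 TPM in the shFAM111B libraries. The markers did not move together: every shFAM111B library lay above every NC library for 4 of them, AFP, APOA1, TTR and GPC3, and below for the other 6, ALB, APOB, SERPINA1, HNF4A, TF and FGB. APOB was at 230.19, 245.22 and 234.01 TPM in NC and at 47.3, 51.5 and 45.67 TPM in shFAM111B. Of the leukocyte markers, CD3E stayed below 1 TPM in every library, PTPRC was at most 2.39 TPM, and the 4 markers summed to 276.28 to 283.75 TPM in NC and 308.26 to 340.62 TPM in shFAM111B, nearly all from LYZ and CD68. The endothelial sum was at most 3.49 TPM and the fibroblast sum at most 4.57 TPM, with CDH5 and VWF near 0. The part of these levels in the results below was not tested. Across the tested genes, libraries of a group correlated at 0.969 to 0.984 and libraries of different groups at 0.865 to 0.883.

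In TPM as deposited, the cytosolic and mitochondrial synthetases were lower by nearly the same proportion in shFAM111B cells. The cytosolic members summed to 2323.6, 2244.4 and 2376.4 TPM in the NC libraries and to 1580.6, 1632.8 and 1687.5 TPM in the shFAM111B libraries, a mean fold of 0.706. The mitochondrial members summed to 365.79, 362.69 and 366.39 TPM in NC and to 257.25, 244.02 and 269.65 TPM in shFAM111B, a mean fold of 0.704. In both sets every shFAM111B sum lay below every NC sum. The mitochondrial sum was 15.8% ± 0.372 of the cytosolic sum in NC and 15.7% ± 0.698 in shFAM111B (SD, n = 3 libraries each), and the libraries of the groups overlapped in this share. The share does not depend on a scaling factor of the library. It does depend on scalings that act on levels: after quantile normalization the fold between the groups was 1.31 instead of 0.997. It also depends on the place of AIMP2. With AIMP2 counted as mitochondrial, the share was 18.9% to 19.2% in NC and 19.5% to 21.4% in shFAM111B, without overlap. In bulk RNA, fewer cells with a transcript and less of it per cell cannot be told apart.

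Of the 23 cytosolic members, 16 were lower and 1 was higher in shFAM111B cells at an adjusted p under 0.05 by limma with Benjamini-Hochberg adjustment over all tested genes. Of the 17 mitochondrial members, 10 were lower and 0 were higher. At an unadjusted p under 0.05 the mitochondrial counts were the same, and 5 mitochondrial members were higher after median-of-ratios scaling. Over all tested genes, 50.9% were lower and 21.1% were higher. The median difference was -0.44 for the cytosolic and -0.40 for the mitochondrial members, against -0.36 for all tested genes, so both sets lay close to the median gene. At a fold of at least 2 with P under 0.05, 5 cytosolic and 4 mitochondrial members were lower and none were higher, against 23.7% lower and 6.82% higher over all tested genes. All differences are of log2(TPM + 1), and the added 1 makes the change of weakly expressed genes look smaller than it is.

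The share of all genes called lower depends on scaling, since TPM are relative within a library. After median-of-ratios scaling, which set the median gene to 0.0284, 11 cytosolic members were higher and 7 lower, 5 mitochondrial members were higher and 5 lower, and 35.8% of all genes were higher and 35.2% lower. The medians were then 0.0054 for the cytosolic and 0.0431 for the mitochondrial members. Transcript length moved with the difference as well. Across 14263 tested genes with a length, Spearman's rho between the longest transcript and the difference was -0.459, and across the 40 members it was -0.221. Both are descriptions over genes that share the same 6 libraries. The longest transcript was 2000 to 5000 nucleotides for 33 of the 40 members, and among the 6983 tested genes in that range 55.3% were lower, 17.3% were higher, and the median difference was -0.41. In that range 22.4% of genes were lower and 4.18% higher by at least 2-fold with P under 0.05.

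**Figure D1:**
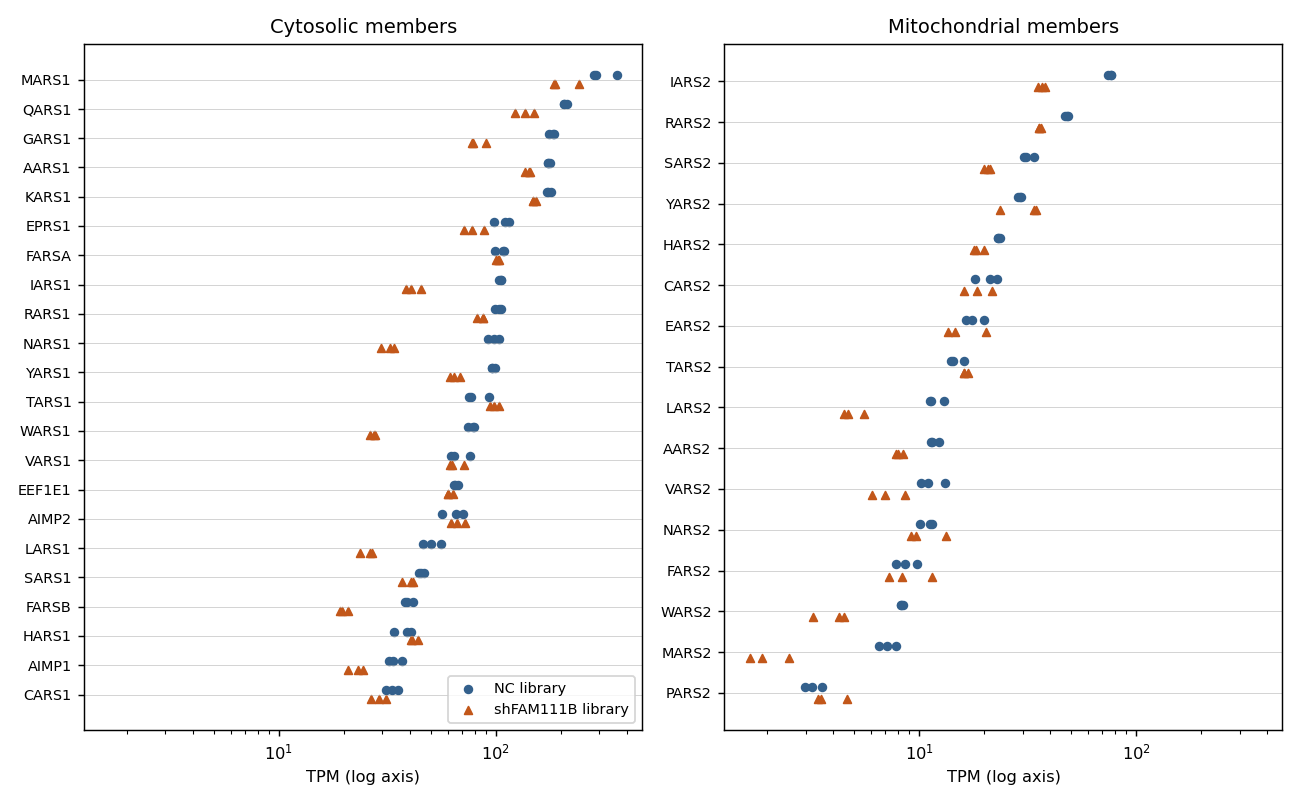
TPM of each member reported here in each library on a log axis, cytosolic members on the left and mitochondrial members on the right, each ordered by its mean in NC, with circles for the 3 NC and triangles for the 3 shFAM111B libraries. NARS1, WARS1, IARS1 and GARS1 and, on the right, MARS2, LARS2 and IARS2 show triangles well to the left of the circles, whereas TARS1, with 74.95 to 92.95 TPM in NC and 93.48 to 103.05 TPM in shFAM111B, shows them to the right.

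In TPM as deposited, the cytosolic enzymes that fell by at least 2-fold included those for asparagine, tryptophan, isoleucine and glycine. Scaled by median-of-ratios, the differences were -1.14 for NARS1, -1.03 for WARS1, -0.88 for IARS1 and -0.68 for GARS1. The last 2 were then short of 2-fold. NARS1, the asparaginyl-tRNA synthetase (ENSG00000134440, GRCh38 chromosome 18 from 57600656 to 57622213), was at 103.28, 97.99 and 92.37 TPM in NC and at 32.63, 34.04 and 29.47 TPM in shFAM111B. The groups were far apart, with a mean of 97.9 ± 5.46 TPM against 32.0 ± 2.34 TPM (SD, n = 3), and the difference was -1.58 (standard error 0.0727, adjusted p = 4.35e-06, limma).

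WARS1, the tryptophanyl-tRNA synthetase (ENSG00000140105, chromosome 14 from 100333788 to 100376805), was at 79.09, 74.47 and 78.43 TPM in NC and at 26.41, 27.31 and 27.63 TPM in shFAM111B. The libraries of each group were close together and the groups did not overlap. The difference was -1.48 (standard error 0.0527, adjusted p = 2.63e-06, limma).

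IARS1, the isoleucyl-tRNA synthetase of the complex (ENSG00000196305, chromosome 9 from 92210207 to 92293756), was at 105.6, 103.68 and 105.59 TPM in NC and at 40.41, 45.13 and 38.36 TPM in shFAM111B. The NC libraries were nearly equal and the shFAM111B libraries all lay lower, with a difference of -1.33 (standard error 0.0674, adjusted p = 5.69e-06, limma). GARS1 charges glycine in both compartments (ENSG00000106105, chromosome 7 from 30594681 to 30634033). It was at 183.54, 184.65 and 175.58 TPM in NC and at 78.8, 90.06 and 77.95 TPM in shFAM111B, again without overlap, and the difference was -1.13 (standard error 0.066, adjusted p = 9.14e-06, limma).

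TARS1, the threonyl-tRNA synthetase (ENSG00000113407, chromosome 5 from 33440696 to 33469539), was the cytosolic member at the other end of the range. It was at 92.95, 76.92 and 74.95 TPM in NC and at 93.48, 98.07 and 103.05 TPM in shFAM111B. All 3 shFAM111B libraries lay above all 3 NC libraries, but shFAM111B replicate 1 lay only just above NC replicate 1. The difference was 0.27 (standard error 0.0897, adjusted p = 0.0295, limma), and it was not called without NC replicate 2 or 3 or without shFAM111B replicate 2 or 3 (0.21 to 0.27, adjusted p = 0.0631 to 0.0951, limma), nor with the replicate number as a block (adjusted p = 0.0552, limma).

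**Figure D2:**
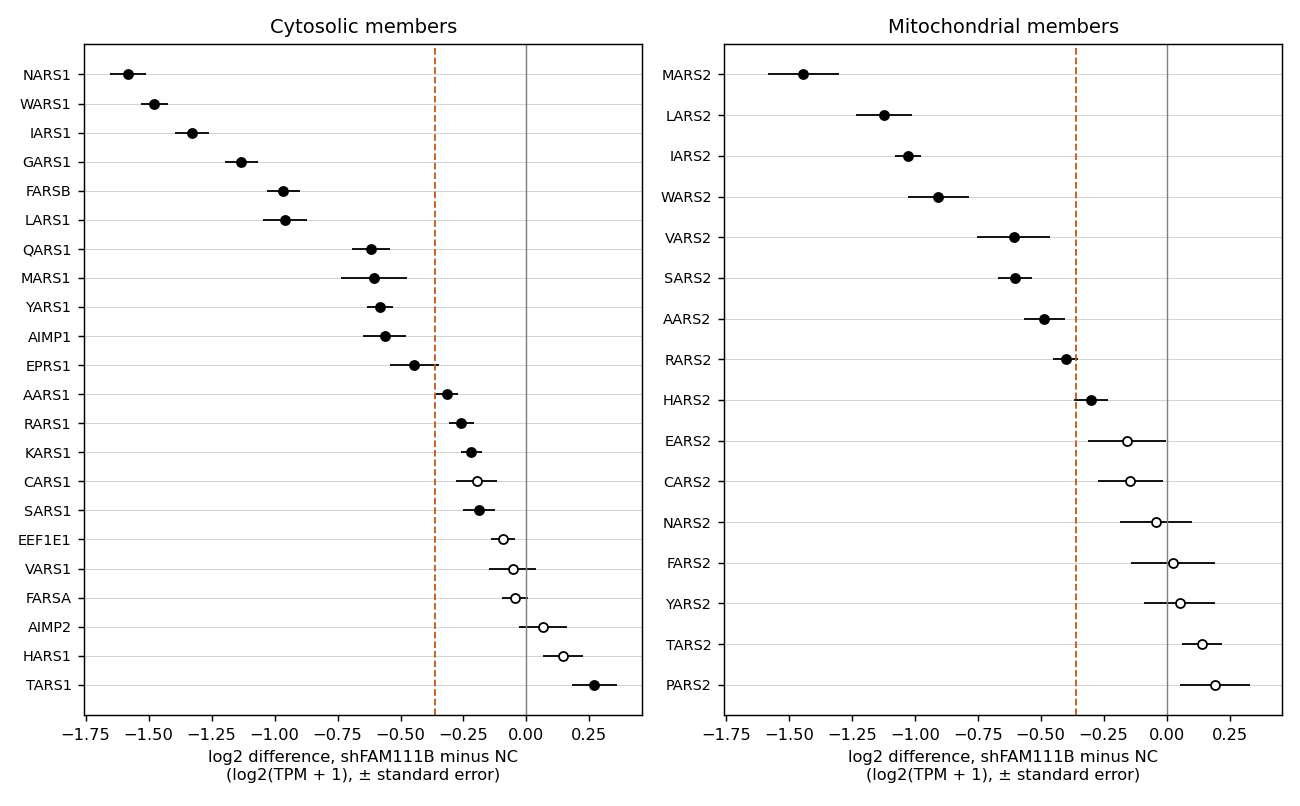
Difference of log2(TPM + 1), shFAM111B minus NC, with its standard error, for the cytosolic members reported here on the left and the mitochondrial ones on the right; filled circles are at an adjusted p under 0.05 by limma, and the dashed line is the median of all tested genes at -0.36. The members spread on both sides of the dashed line, from -1.58 for NARS1 to 0.27 for TARS1.

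Promoter sequence was examined because the ATF4-listed synthetases ranged over the whole spread of the cytosolic members. RefSeq windows from 250 bases before to 50 bases after the start site (GRCh38.p14) matched 33 of the 40 members. AARS2, LARS1, VARS1, VARS2 and YARS1 were among those without a window. The core of the C/EBP-ATF response element, TGATGNAA on either strand, was found in 7 of 19 cytosolic members with a window and in 1 of 14 mitochondrial members with one. It was found in 4.457% of the 27305 genes with a window, and in 3.617% of all 35116 windows of this length. The windows around the core are given on the strand of the gene, 5′ to 3′, with the core in capitals, and a core read from the opposite strand therefore appears as its reverse complement.
NARS1, chr18:57621805-57621832: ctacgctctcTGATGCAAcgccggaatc
IARS1, chr9:92293693-92293720: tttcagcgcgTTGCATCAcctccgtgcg
GARS1, chr7:30594835-30594862: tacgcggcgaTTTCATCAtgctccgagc
MARS1, chr12:57488054-57488081: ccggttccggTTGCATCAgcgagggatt
AARS1, chr16:70289676-70289703: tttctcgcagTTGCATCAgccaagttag
CARS1, chr11:3057408-3057435: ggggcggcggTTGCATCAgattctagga
TARS1, chr5:33440957-33440984: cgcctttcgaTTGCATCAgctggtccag
YARS2, chr12:32756077-32756104: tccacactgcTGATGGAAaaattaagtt

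A core with the same 8 letters on 1 strand or the other stood in NARS1, IARS1, MARS1, AARS1, CARS1 and TARS1, so it was shared by the lowest and the highest member of the cytosolic set. Between these ends, the differences were -1.33 for IARS1, -1.13 for GARS1, -0.61 for MARS1, -0.32 for AARS1 and -0.20 for CARS1, the last not called. YARS2, the mitochondrial tyrosyl-tRNA synthetase, had a difference of 0.05, also not called. A match of these letters is a description of the window and not evidence of binding.

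The 13 cytosolic synthetases often listed as ATF4 targets had 10 lower and 1 higher member and a median difference of -0.58. The 7 other cytosolic synthetases had 5 lower and 0 higher and a median of -0.26. After median-of-ratios scaling the counts were 5 lower and 5 higher for the ATF4-listed genes and 2 lower and 4 higher for the others. Among 25 other ATF4 targets, 17 were lower and 3 were higher, with a median of -0.65, against 50.9% lower and 21.1% higher over all tested genes. After median-of-ratios scaling 13 were lower and 7 higher, with a median of -0.19, against 35.2% and 35.8% of all genes. SLC7A1, the cationic amino acid transporter, had the largest of these differences, at 24.98, 21.3 and 23.39 TPM in NC and 2.21, 2.15 and 1.73 TPM in shFAM111B. SLC7A11, the cystine transporter, had a difference of -2.15. ATF3, a stress-induced transcription factor, had a difference of -1.81, and DDIT3, the stress-induced transcription factor CHOP, one of 1.93. DDIT3 lies on the opposite strand from MARS1 and shares 355 exonic bases with it, and the strand setting of the authors' counting is not given in the sources used here, so part of the reads of either gene could be counted for the other.

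The 11 members of the multisynthetase complex had 9 lower and 0 higher, with a median difference of -0.56, and the 12 free cytosolic members had 7 lower and 1 higher, with a median of -0.26. Of all tested genes, 50.9% were lower and 21.1% higher, with a median of -0.36. After median-of-ratios scaling the complex had 3 lower and 4 higher and the free members 4 lower and 7 higher. The shares of all genes were then 35.2% lower and 35.8% higher. No test compared the complex with the free members. Within the complex, IARS1 and LARS1 were among the lowest, with LARS1, the leucyl-tRNA synthetase, at 56.0, 50.29 and 46.35 TPM in NC and 26.82, 26.42 and 23.66 TPM in shFAM111B. QARS1, for glutamine, MARS1, for methionine, and EPRS1 had differences of -0.62, -0.61 and -0.44, and RARS1, for arginine, and KARS1, for lysine, of -0.26 and -0.22. All of these passed the test as lower in TPM as deposited. With median-of-ratios scaling RARS1 and KARS1 were higher, at 0.19 and 0.23, and QARS1 (-0.16), MARS1 (-0.15) and EPRS1 (0.0054) were not called (adjusted p = 0.0673, 0.311 and 0.966, limma).

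KARS1, which also serves mitochondria (ENSG00000065427, chromosome 16 from 75627474 to 75648643), was at 173.47, 171.48 and 179.39 TPM in NC and at 148.37, 148.49 and 152.88 TPM in shFAM111B. The groups did not overlap, and the difference of -0.22 (standard error 0.0416, adjusted p = 0.00241, limma) stands beside that of -1.13 for GARS1, the other synthetase gene of both compartments.

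Of the 3 scaffold proteins, AIMP1 passed the test as lower in TPM as deposited and AIMP2 and EEF1E1 did not pass, and the calls of all 3 changed with the scaling. AIMP1, which binds the arginyl enzyme in the complex (ENSG00000164022, chromosome 4 from 106315544 to 106349226), was at 37.0, 32.0 and 33.57 TPM in NC and at 20.8, 24.4 and 23.26 TPM in shFAM111B. Every shFAM111B library lay below every NC library, with a difference of -0.56 (standard error 0.0857, adjusted p = 0.000805, limma). AIMP2, which holds the complex together (ENSG00000106305, chromosome 7 from 6009245 to 6023834), was at 65.23, 56.36 and 70.34 TPM in NC and at 66.15, 62.05 and 72.18 TPM in shFAM111B. The groups overlapped, and the difference was 0.06 (standard error 0.0953, adjusted p = 0.565, limma). After median-of-ratios scaling AIMP1 was not called (-0.12, adjusted p = 0.22, limma) and AIMP2 was higher (0.51, adjusted p = 0.00179, limma). Over 6 versions of the values, described further on, AIMP1 was called lower in 2, and AIMP2 was called higher in 3 and lower in 1.

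EEF1E1, also called AIMP3 (ENSG00000124802, chromosome 6 from 8073360 to 8102578), was at 64.02, 64.98 and 66.64 TPM in NC and at 63.23, 60.27 and 59.85 TPM in shFAM111B. The shFAM111B libraries lay just below the NC libraries and the difference of -0.09 did not pass the test (adjusted p = 0.128, limma), whereas after median-of-ratios scaling it was higher (0.36, adjusted p = 0.000653, limma). Its reads can be shared, since 33.9% of the 50-base stretches of its longest transcript also occur in EEF1E1-BLOC1S5 or EEF1E1P1. The ratio of AIMP2 to AIMP1 within a library, which no scaling factor of the library can change, went from 1.87 ± 0.192 in NC to 2.94 ± 0.348 in shFAM111B (SD, n = 3). The groups did not overlap in it, and p = 0.1 is the smallest that an exact two-sided permutation test of 3 libraries against 3 can give. AIMP2 shares 532 of its 1838 exonic bases with EIF2AK1, and AIMP1 shares 387 of 3328 with TBCK, both on the opposite strand. Without strand, some of these reads could not be told apart.

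The subunits of the cytosolic phenylalanyl-tRNA synthetase stood in different proportions in the 2 groups. FARSA, the catalytic subunit, was at 107.59, 99.2 and 108.67 TPM in NC and at 103.38, 100.37 and 101.95 TPM in shFAM111B, and the groups overlapped. FARSB, the other subunit, was at 39.06, 38.28 and 41.37 TPM in NC and at 19.05, 20.88 and 19.43 TPM in shFAM111B, without overlap. The difference was -0.97 for FARSB (standard error 0.0652, adjusted p = 1.61e-05, limma) and -0.04 for FARSA (standard error 0.0515, adjusted p = 0.469, limma). The ratio of FARSA to FARSB was therefore 2.66 ± 0.0858 in NC and 5.16 ± 0.319 in shFAM111B (SD, n = 3, exact permutation p = 0.1, the smallest possible), a shift of 0.96 on the log2 scale.

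HARS1 and HARS2, the cytosolic and mitochondrial histidyl-tRNA synthetases, are neighbours on chromosome 5 and are transcribed away from each other. HARS1 (ENSG00000170445, chromosome 5 from 140673904 to 140691862) was at 38.81, 33.81 and 40.6 TPM in NC and at 43.66, 41.02 and 40.61 TPM in shFAM111B. The shFAM111B libraries lay above the NC libraries, but replicate 3 of the former only just above replicate 3 of the latter, and the difference of 0.15 did not pass the test (standard error 0.0799, adjusted p = 0.14, limma). HARS2 (ENSG00000112855, chromosome 5 from 140691426 to 140699318) was at 23.17, 23.08 and 23.51 TPM in NC and at 18.3, 19.93 and 17.9 TPM in shFAM111B, without overlap. Its difference was -0.30 (standard error 0.0671, adjusted p = 0.00535, limma). After median-of-ratios scaling HARS1 was higher (0.59, adjusted p = 0.000483, limma) and HARS2 was not called (0.13, adjusted p = 0.123, limma).

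The ratio of HARS2 to HARS1 went from 0.620 ± 0.0554 in NC to 0.449 ± 0.0340 in shFAM111B (SD, n = 3), without overlap and with an exact permutation p = 0.1, the smallest possible. The RefSeq start sites of the pair lie at 140691370 and 140691455 with 84 bases between them, and that stretch holds 2 copies of the ETS core CCGGAAGT, counting both strands. They are shown on the plus strand of GRCh38.p14 with the core in capitals because both genes start at the ends of this short stretch.
Core near the HARS1 start, chr5:140691362-140691389: agcaaggatgACTTCCGGctatcgagtc
Core near the HARS2 start, chr5:140691437-140691464: ccggctcctcCCGGAAGTgccgaagctg

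The exons of HARS1 and HARS2 overlap by 437 bases on opposite strands in GENCODE v29, so without strand some of their reads could not be told apart. The ETS core was found in 5 of 19 cytosolic and 3 of 14 mitochondrial members with a window, against 4.948% of all genes with a window. HARS1 is among the former and HARS2 among the latter. Their windows share the stretch shown above, so the same cores are counted in both sets. The CCAAT box, on either strand, was found in 10 of 19 and 9 of 14 members, against 39.722% of genes, and the GC box core GGGCGG in 14 of 19 and 11 of 14, against 48.303%.

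The remaining cytosolic synthetases changed little or moderately. YARS1, for tyrosine, had a difference of -0.58, AARS1, for alanine, of -0.32 and SARS1, for serine, of -0.19, and all 3 passed the test as lower in TPM as deposited. The call of SARS1 was lost without NC replicate 1, 2 or 3 or without shFAM111B replicate 1 (adjusted p = 0.0519 to 0.0975, limma). CARS1, for cysteine, at -0.20 and VARS1, for valine, at -0.05 did not pass, although CARS1 passed without shFAM111B replicate 3 (-0.25, adjusted p = 0.0304, limma). AARS1, SARS1, CARS1 and VARS1 all had a difference above 0 after median-of-ratios scaling, from 0.14 to 0.39, and YARS1 was then not called (-0.13, adjusted p = 0.0564, limma).

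Among the mitochondrial members, those that fell by at least 2-fold in TPM as deposited included the enzymes for methionine, leucine and isoleucine. Scaled by median-of-ratios, the differences were -1.09 for MARS2, -0.72 for LARS2 and -0.58 for IARS2. LARS2 and IARS2 were then short of 2-fold. MARS2, the mitochondrial methionyl-tRNA synthetase (ENSG00000247626, chromosome 2 from 197705369 to 197708387), was at 7.14, 6.54 and 7.79 TPM in NC and at 2.51, 1.88 and 1.66 TPM in shFAM111B. These are low levels, but every shFAM111B library was far below every NC library. The mean TPM was 3.55-fold lower, and with the added 1 the log2 difference came to -1.44 (standard error 0.142, adjusted p = 8.76e-05, limma).

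LARS2, the leucyl enzyme (ENSG00000011376, chromosome 3 from 45388506 to 45549421), was at 11.33, 11.26 and 13.06 TPM in NC and at 4.68, 5.57 and 4.53 TPM in shFAM111B. The groups did not overlap, with a difference of -1.12 (standard error 0.111, adjusted p = 9.01e-05, limma).

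IARS2, the isoleucyl enzyme (ENSG00000067704, chromosome 1 from 220094102 to 220148041), was the most abundant mitochondrial member, at 76.38, 74.49 and 76.75 TPM in NC and 36.84, 37.94 and 35.38 TPM in shFAM111B. The libraries of each group were nearly equal, and the difference was -1.03 (standard error 0.0509, adjusted p = 5.37e-06, limma). WARS2, the tryptophanyl enzyme, followed at 8.27, 8.29 and 8.4 TPM in NC and 3.26, 4.49 and 4.26 TPM in shFAM111B, with a difference of -0.91 and no overlap.

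VARS2, SARS2, AARS2 and RARS2, for valine, serine, alanine and arginine, had smaller differences of -0.61, -0.60, -0.49 and -0.40, and all passed the test as lower in TPM as deposited. None of these 4 passed after median-of-ratios scaling (-0.20, -0.16, -0.07 and 0.0431, adjusted p = 0.265, 0.0674, 0.46 and 0.476, limma), and VARS2 and AARS2 were called in 2 of 6 versions of the values. The reads of SARS2 and VARS2 are uncertain, since 71.9% of the 50-base stretches of the longest SARS2 transcript also occur in AC011455.2 and 30.1% of those of VARS2 in GTF2H4. EARS2, CARS2, NARS2, FARS2, YARS2, TARS2 and PARS2 did not pass, with differences from -0.16 for EARS2 to 0.19 for PARS2. Of these, TARS2, the threonyl enzyme, had every shFAM111B library above every NC library, at 16.06 to 16.89 TPM against 14.0 to 16.04 TPM, and the other 6 overlapped. EARS2 passed as lower without shFAM111B replicate 3 (-0.32, adjusted p = 0.0338, limma) and YARS2 as higher without shFAM111B replicate 2 (0.22, adjusted p = 0.0172, limma).

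Of the 40 members, 28 had every shFAM111B library below every NC library, 3 had every one above, and in 9 the groups overlapped. In either direction, the groups did not overlap in 75.2% of all tested genes, and the members were close to this share. Every shFAM111B library lay below every NC library in 18 of 23 cytosolic and 10 of 17 mitochondrial members, against 52.8% of all genes, and above in 2 and 1, against 22.5%. By catalytic class, the 9 cytosolic class I enzymes had 7 lower and a median of -0.61, and the 10 cytosolic class II enzymes had 7 lower, 1 higher and a median of -0.27. The mitochondrial enzymes of class I, 9 in number, had 6 lower and a median of -0.61, and the 8 of class II had 4 lower and a median of -0.17. Of all tested genes, 50.9% were lower and 21.1% higher, with a median of -0.36. The classes were not compared by a test. After median-of-ratios scaling the medians were -0.15 and 0.18 for the cytosolic and -0.20 and 0.25 for the mitochondrial classes I and II. The median gene was then at 0.0284. FARSA and FARSB were counted in class II and EPRS1, which holds an enzyme of each class, in neither.

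The cytosolic and mitochondrial enzymes for the same amino acid gave 18 pairs. Both members were lower in 8 pairs, the cytosolic member alone in 5 and the mitochondrial member alone in 2. Neither was called in 2 pairs. In the pair for threonine, the cytosolic member was higher and the mitochondrial member was not called. These counts are for TPM as deposited, where 50.9% of all tested genes were lower and 21.1% higher. They were not made after other scalings. Across the 18 pairs, which share the same 6 libraries and in part the same genes, Spearman's rho between the cytosolic and mitochondrial differences was 0.35 and Pearson's r was 0.418. For isoleucine, leucine and tryptophan, the differences of both enzymes lay between -1.48 and -0.91.

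The mitochondrial-to-cytosolic ratio within a library did not overlap between the groups in 12 of 18 pairs, and it was higher in shFAM111B in 6 and lower in 6. The same share was not computed for other gene pairs. For single genes, the groups did not overlap in 75.2% of all tested genes. That share is of levels, which a scaling factor of the library can move, and not of ratios. The count of pairs therefore has no like background and is not read as particular to them. The largest shift was for asparagine, where the log2 ratio of NARS2 to NARS1 was -3.16 ± 0.142 in NC and -1.60 ± 0.393 in shFAM111B (SD, n = 3), a shift of 1.56. NARS2 was itself at 11.28, 10.08 and 11.51 TPM in NC and at 9.21, 9.64 and 13.35 TPM in shFAM111B, so the ratio moved with NARS1. In the opposite direction, the log2 ratio of MARS2 to MARS1 was -5.33, -5.44 and -5.53 in NC and -6.22, -6.62 and -7.18 in shFAM111B, a shift of -1.24. For tryptophan and isoleucine, where both enzymes fell, the ratio shifted by 0.44 and 0.30, and for valine, serine and histidine it shifted by -0.62, -0.43 and -0.46. Each of the 12 had an exact two-sided permutation p = 0.1, the smallest possible, and an adjusted p = 0.15 over the 18 pairs, so no pair could pass a threshold of 0.05 in this design.

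**Figure D3:**
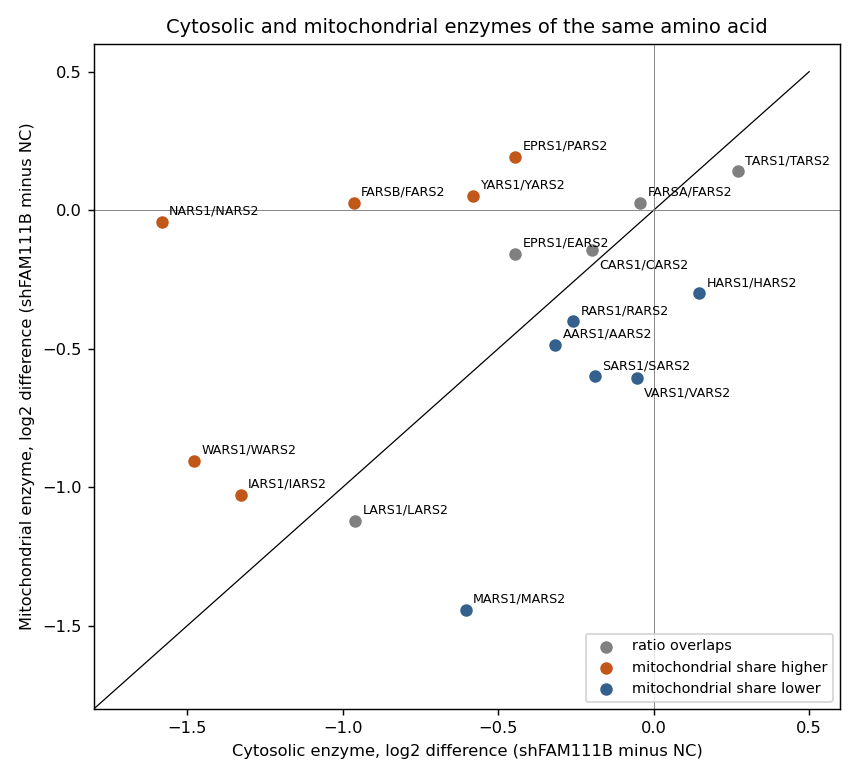
Difference of log2(TPM + 1), shFAM111B minus NC, of the cytosolic enzyme (horizontal) and of the mitochondrial enzyme (vertical) for the pairs reported here, with the line of equal differences; orange pairs have a mitochondrial-to-cytosolic ratio that is higher in every shFAM111B library, blue pairs one that is lower, and grey pairs overlap. NARS1/NARS2 lies furthest above the line, with a shift of 1.56, and MARS1/MARS2 furthest below it, with a shift of -1.24.

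Which members were called depended on scaling for most of the 40. In 6 versions of the values (TPM as deposited, median-of-ratios scaling, upper-quartile scaling, quantile normalization, TPM rescaled to nuclear protein-coding genes, and the trend with length and expression removed) 7 of 23 cytosolic members were called lower every time, among them NARS1, WARS1, IARS1, GARS1, FARSB and LARS1. Among the mitochondrial members, 5 of 17 were, including MARS2, LARS2, IARS2 and WARS2. The share of all tested genes called lower in all 6 was not computed, so these counts have no background. By median-of-ratios scaling alone, 35.2% of all tested genes were called lower. None of the 40 members were called higher in all 6. The difference of NARS1 ranged from -1.71 to -1.14 over the 6 versions, that of LARS1 from -1.09 to -0.30, that of MARS2 from -1.61 to -1.03 and that of LARS2 from -1.26 to -0.31. TARS1 was called higher in 5 of 6, from 0.14 to 0.73, and 8 cytosolic members were called lower in some versions and higher in others.

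The medians of the sets also parted under 2 of these versions. After quantile normalization the cytosolic median was -0.37 and the mitochondrial median 0.0454, with the median gene at -0.0298, and with the trend removed they were -0.24 and 0.19, with the median gene at -0.0152.

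**Figure D4:**
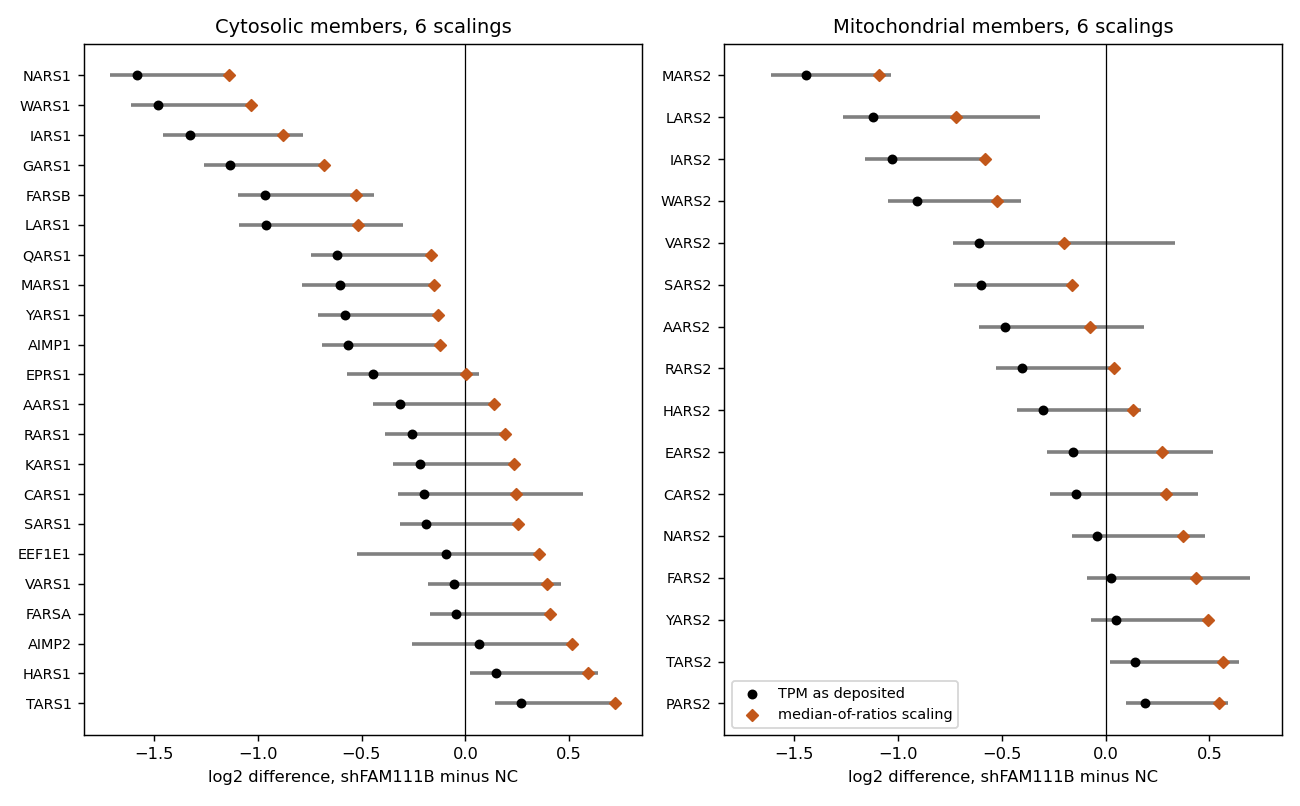
Range of the difference, shFAM111B minus NC, over 6 scalings for each member reported here (grey bar), with TPM as deposited (black circle) and median-of-ratios scaling (orange diamond). The bars of NARS1, WARS1, IARS1, GARS1, MARS2, LARS2 and IARS2 stay below 0, and those of AARS1, RARS1 and KARS1 cross it.

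Other genes of mitochondrial tRNA charging and translation moved in both directions. The amidotransferase that completes glutaminyl-tRNA in mitochondria has 3 subunits. QRSL1 was at 13.24, 14.41 and 14.72 TPM in NC and at 5.83, 6.29 and 5.95 TPM in shFAM111B, a difference of -1.11, and GATC had a difference of -1.02. GATB was at 17.61, 14.57 and 14.61 TPM in NC and at 22.0, 20.75 and 23.61 TPM in shFAM111B, a difference of 0.48. All 3 subunits passed the test, 2 as lower and 1 as higher, where 50.9% of all tested genes were lower and 21.1% higher. After median-of-ratios scaling the differences were -0.70 for QRSL1, -0.60 for GATC and 0.91 for GATB. The calls were the same, against 35.2% of all genes lower and 35.8% higher. The ratio of QRSL1 to GATB went from 0.916 ± 0.143 to 0.273 ± 0.0266 (SD, n = 3, exact permutation p = 0.1, the smallest possible), with no overlap between the groups.

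**Figure D5:**
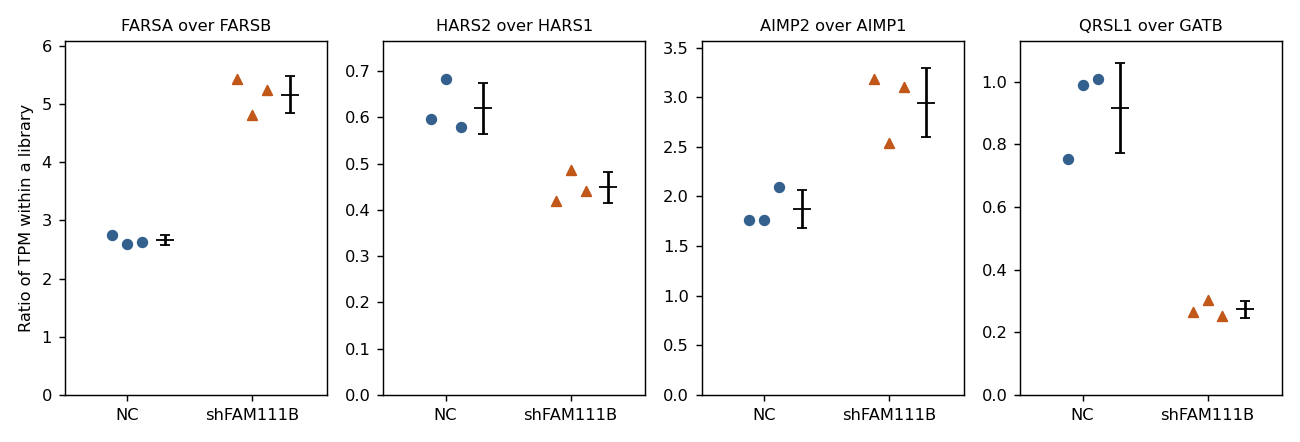
Ratio of TPM within each library for the FARSA and FARSB subunits, for HARS2 and HARS1, for AIMP2 and AIMP1, and for the amidotransferase subunits QRSL1 and GATB, with circles for NC, triangles for shFAM111B, and the mean with its SD beside them (n = 3). In all 4 the groups do not overlap, and the ratio of FARSA to FARSB goes from 2.66 to 5.16.

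Of 20 genes of mitochondrial tRNA processing and modification, 12 were lower and 4 higher, with a median of -0.45, and after median-of-ratios scaling 9 were lower and 7 higher, with a median of -0.07. Over all tested genes the shares were 50.9% lower and 21.1% higher as deposited, and 35.2% and 35.8% after that scaling, and the same shares stand beside the counts of the factors that follow. QTRT2, a subunit of the enzyme that places queuine in tRNA, had a difference of -2.18, GTPBP3, which modifies the wobble uridine, of -1.65, and YRDC, which takes part in the threonylcarbamoyl modification, of -1.10. PRORP, the nuclease of mitochondrial RNase P, had a difference of 0.82 with NC replicate 1 well below the other NC libraries, at 4.26 TPM against 8.61 and 8.34 TPM. Of 9 tested mitochondrial translation factors, 5 were lower and 3 higher, with a median of -0.28, and after median-of-ratios scaling 4 were lower and 3 higher, with a median of 0.15. The elongation factor GFM1 had a difference of -2.06, whereas the initiation factor MTIF3 had one of 0.58 and the elongation factor TUFM, which brings the charged tRNA to the mitochondrial ribosome, one of 0.47. Of 7 cytosolic elongation factors, 2 were lower and 2 higher, with a median of -0.05, and after median-of-ratios scaling 0 were lower and 4 higher, with a median of 0.38. EEF1A1, which brings charged tRNA to the cytosolic ribosome, had a difference of -0.53 as deposited and -0.08 after that scaling, and EEF1D, a subunit of its exchange factor, one of 0.79 and 1.24.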

How the data were processed

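RNA-seq of Huh7 cells was analysed in 6 libraries, 3 NC and 3 KD, grouped by their titles. The authors deposited TPM for each library, and per the submitters' processing notes RSEM, DESeq2 and hg38 were used. The aligner, the annotation and the strand setting are not given in the sources used here. The deposited table also holds columns of the authors' own comparison (a ratio, its log2, p-values before and after adjustment) and the authors' mean TPM, none of which were used. Because TPM carry no read numbers, sequencing depth is unknown and counting error cannot be stated. The listed TPM summed to 978634 to 997094 per library.

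A gene entered the test when 3 or more libraries had 1 TPM or more. The test was run on log2(TPM + 1) with limma 3.58.1 (lmFit, eBayes with trend, R 4.3.3), without covariates and with Benjamini-Hochberg adjustment over 14394 genes. The script was tested on simulated data. Ratios within a library were compared with exact two-sided permutation tests. Positions, lengths and shared exons came from GENCODE v29 and promoter windows from RefSeq. Tables and figures were made with pandas 2.3.3, scipy 1.17.1 and matplotlib 3.10.9 under Python 3.11.15.

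The members and lists were chosen with earlier results of these data known. TPM of each library were given for members past 2-fold with P under 0.05, the 4 cytosolic and 4 mitochondrial synthetases with the largest difference, AIMP1, AIMP2, EEF1E1, HARS1, HARS2, GARS1, KARS1 and FAM111B. From the other lists up to 4 called members with the largest differences were named. TARS1, FARSA, FARSB, LARS1, WARS2, NARS2, TARS2, the amidotransferase subunits, PRORP, TUFM, EEF1D and EEF1A1 were detailed after their values were seen. Alternatives were 2 other filters, a pseudocount of 0.1, a replicate block, leaving out each library, 5 other versions of the values and AIMP2 counted as mitochondrial. The background of genes of 2000 to 5000 nucleotides was added after the data were seen. Replicate numbers were not taken as pairs. Results of 2 members are not reported here, and those members stay in the counts, sums and medians.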

Additional observations from a re-analysis of the deposited data

How the results depend on the processing

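Among the 40 members, the direction and the call were kept by all with at least 1 TPM in every library and with a pseudocount of 0.1, and by 39 without a filter, where TARS1 lost its call (adjusted p = 0.068, limma). The replicate numbers were not taken as pairs. Same-numbered deviations correlated at 0.054, 0.0349 and 0.0908, all positive but low. Differently numbered ones were negative, down to -0.0763, except for shFAM111B replicate 2 with NC replicate 1 (0.0442). That value was above the one of shFAM111B replicate 2 with its own number. With the replicate block, 38 members kept their call, TARS1 lost its call and CARS1 gained one, which left 0 cytosolic members higher, and 14 of 18 pairs had 3 same-numbered ratios that moved one way. Cytosolic members called higher numbered 1 in TPM as deposited, 0 without a filter, 0 at a fold of 2, 0 rescaled to nuclear protein-coding genes, 11 by median-of-ratios, 10 by upper-quartile, 3 by quantile normalization, 4 with the trend removed, and 0 to 1 with a library left out. Cytosolic members called lower numbered 16, and 7 by median-of-ratios, 9 by upper-quartile and 5 at a fold of 2. Mitochondrial members called higher numbered 0, and 5, 3, 6 and 5 by median-of-ratios, upper-quartile, quantile normalization and trend removal, and 0 to 1 with a library left out. Mitochondrial members called lower numbered 10, and 5, 6 and 5 by median-of-ratios, upper-quartile and quantile normalization, and 4 at a fold of 2. Of all tested genes, 50.9% were lower and 21.1% higher as deposited, and 35.2% and 35.8% by median-of-ratios. At a fold of 2 the shares were 23.7% and 6.82%. For the other settings the shares of all genes were not computed, so those counts have no background. The cytosolic median was -0.53 to -0.37 with a library left out (the ends without shFAM111B replicates 2 and 3), 0.0054 by median-of-ratios, -0.0347 by upper-quartile, -0.37 by quantile normalization, -0.57 rescaled and -0.24 with the trend removed. The mitochondrial median was 0.0431, 0.0035, 0.0454, -0.53 and 0.19 in the same order. The share of the mitochondrial in the cytosolic sum had a fold of 0.997, 1.08 with AIMP2 counted as mitochondrial and 1.31 after quantile normalization. With AIMP2 so counted, the groups did not overlap in this share. Differences turned in direction as follows. By median-of-ratios and upper-quartile they were 0.14 and 0.10 for AARS1, 0.19 and 0.15 for RARS1, 0.23 and 0.19 for KARS1, 0.24 and 0.20 for CARS1, 0.26 and 0.22 for SARS1, 0.36 and 0.32 for EEF1E1, 0.39 and 0.35 for VARS1, 0.41 and 0.37 for FARSA, 0.0431 and 0.0035 for RARS2, 0.13 and 0.10 for HARS2, 0.27 and 0.23 for EARS2, 0.29 and 0.25 for CARS2, and 0.37 and 0.34 for NARS2, and 0.0054 for EPRS1 by median-of-ratios. By quantile normalization they were 0.20 for CARS1, 0.14 for SARS1, 0.0941 for EEF1E1, 0.12 for VARS1, 0.0454 for AARS2, 0.17 for HARS2, 0.34 for EARS2, 0.34 for CARS2 and 0.48 for NARS2. With the trend removed they were 0.0665 for EPRS1, 0.57 for CARS1, 0.46 for VARS1, -0.26 for AIMP2, 0.34 for VARS2, 0.19 for AARS2, 0.0305 for HARS2, 0.52 for EARS2, 0.45 for CARS2 and 0.28 for NARS2. Rescaled, they were -0.0606 for AIMP2, -0.0910 for FARS2 and -0.0712 for YARS2. With a library left out the differences ranged from -0.12 to 0.0336 for VARS1, -0.0227 to 0.13 for AIMP2, -0.20 to 0.0495 for NARS2, -0.14 to 0.15 for FARS2 and -0.0404 to 0.22 for YARS2, none of which passed the test in TPM as deposited. The cause was not tested.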

Other observations

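Proteins related to the synthetases but outside the members were counted as a further list, chosen with earlier results known. Of 9 genes of selenocysteine tRNA and related steps, 6 were lower and 1 was higher, with a median difference of -0.37, close to the median gene at -0.36. Of all tested genes, 50.9% were lower and 21.1% higher. After median-of-ratios scaling 2 were lower and 3 higher, with a median of 0.0858, against 35.2% and 35.8% of all genes. SEPHS1, a homologue of selenophosphate synthetase, had 66.76, 60.77 and 64.46 TPM in NC and 27.57, 26.27 and 26.36 TPM in shFAM111B, with no overlap and a difference of -1.23. SEPSECS, which forms selenocysteinyl-tRNA, had 10.55, 10.03 and 8.93 TPM in NC and 4.63, 3.29 and 3.41 TPM in shFAM111B, a difference of -1.19. AARSD1, a free editing protein related to AARS1, was the member that rose, at 63.04, 64.21 and 61.94 TPM in NC and 72.75, 73.49 and 86.94 TPM in shFAM111B, a difference of 0.29. TARS3, a paralogue of TARS1, had 7.17, 9.09 and 7.45 TPM in NC and 4.69, 4.59 and 5.09 TPM in shFAM111B, a difference of -0.62. All of these passed the test in limma, in TPM as deposited. With median-of-ratios scaling the differences were -0.78 for SEPHS1, -0.80 for SEPSECS, 0.74 for AARSD1 and -0.22 for TARS3.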
